A study of Mus musculus with 8 samples.

Results

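A list of 40 genes of blood and lymphatic vessel endothelium and of angiogenic signalling was examined in the embryonic mouse tongue. They were taken by symbol from that list, and 40 of 40 were measured among 18193 genes, with no filter on low values. Where several probe sets named a gene and no other, the brightest on average stood for it. Tongue buds came from C57BL/6J embryos at embryonic day 13.5. The mutant group held 4 buds of genotype Wnt1-Cre; Alk5 fl/fl, in which Cre driven by Wnt1 removes Alk5 (gene symbol Tgfbr1, a type I receptor of TGF-beta) from cranial neural crest cells. The control group held 4 buds of genotype Alk5 fl/fl without Cre, so both groups carried the floxed alleles and no group carried Cre alone. The series asked what loss of this receptor in the neural crest does to the exchange between crest cells and muscle precursors.

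Endothelial cells line all vessels. They descend from mesoderm and not from the neural crest, so Wnt1-Cre is not expected to delete Alk5 in them. Their growth is driven by VEGF ligands acting on the receptors Flt1, Kdr and Flt4, and vessel stability depends on angiopoietins acting on Tek, whose partner is Tie1. Notch signalling, in which Dll4 is a ligand and Notch4 an endothelial receptor, divides sprouting tip cells from stalk cells and helps set arterial identity. Ets and SoxF transcription factors switch on the endothelial programme, and Prox1 turns venous cells into lymphatic ones.

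Each RNA sample was the whole bud, hybridised to 1 one-colour Affymetrix array, and values are log2 signals. In such a bulk sample, more endothelial cells, more RNA per endothelial cell and less RNA from other cells cannot be told apart. Array medians lay between 5.96 and 6.01. Correlations between arrays, across probe sets, were 0.995 to 0.998 among mutants, 0.992 to 0.997 among controls and 0.990 to 0.996 between the groups. The second principal component, with 18.7% of the variance, ran from 15.23 on mutant 1 to -7.05 on mutant 3 and from 8.20 on control 3 to -18.17 on control 1. Y-linked genes averaged 3.09 on control 3, against 8.44 or more on every other array, and the labels leave sex undetermined. The labels do not say whether buds came from separate litters, so p-values measure the spread between these samples. Tgfbr1 itself read 12.36 to 12.42 in mutants and 11.89 to 12.12 in controls (log2 change 0.39, limma adjusted p = 0.00342). Where its probes lie relative to the deleted part is not known here, so it does not check the labels, on which every direction rests.

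Of the 5 markers taken as defining endothelium, Pecam1, Cdh5, Kdr and Tek lay above the array median on all 8 arrays and Tie1 was below it on 6 of them. Markers of tongue mesenchyme and of skeletal muscle had means above the array medians in 10 of 10 measured cases each.

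Some of the 40 genes were higher in mutant tongue buds, among them the ligand gene Vegfc and the junction gene Cdh5. Which cells of the bud made the Vegfc RNA was not tested. Of the 40 genes, 11 rose, 1 fell and 28 did not pass limma at an adjusted p of 0.05. The share called was thus 30%, where 9.72% of all genes were called, 4.2% as higher and 5.52% as lower. With dim probe sets left out, the shares were 34.3% of the 35 genes that remained and 17.3% of all genes that remained. With replicate number as a block in the model, they were 7.5% and 5.31%. Shares of smaller groups are set below against 9.72%, which includes dim genes, so a share near 17.3% shows no clear excess. The median log2 change (mutant minus control) was 0.19, against -0.01 over all genes, and 35 of the 40 changes were positive. The rises were modest, from 1.14-fold for Esam to 1.82-fold for Vegfc. The count depended on single arrays: 6 genes rose without mutant 1, 5 without mutant 2, 6 without control 2 and 6 without control 4, although the median change stayed between 0.16 and 0.23 whichever array was left out. Vegfc and Cdh5 passed under each of the 18 alternative settings, Notch4 and Pecam1 under 17 and Plvap under 16. Flt4 and Dll4 each passed in 1 of the 8 fits with an array left out. Dimmer probe sets of Flt4, Dll4 and Notch4 did not pass.

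The groups did not overlap in 14 of the 40 genes. In 12 of them all mutant values lay above all control values, which is 30% against 8.92% of all genes, and in 2, Lyve1 and Gja5, all lay below, against 8.87% of all genes.

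**Figure D1:**
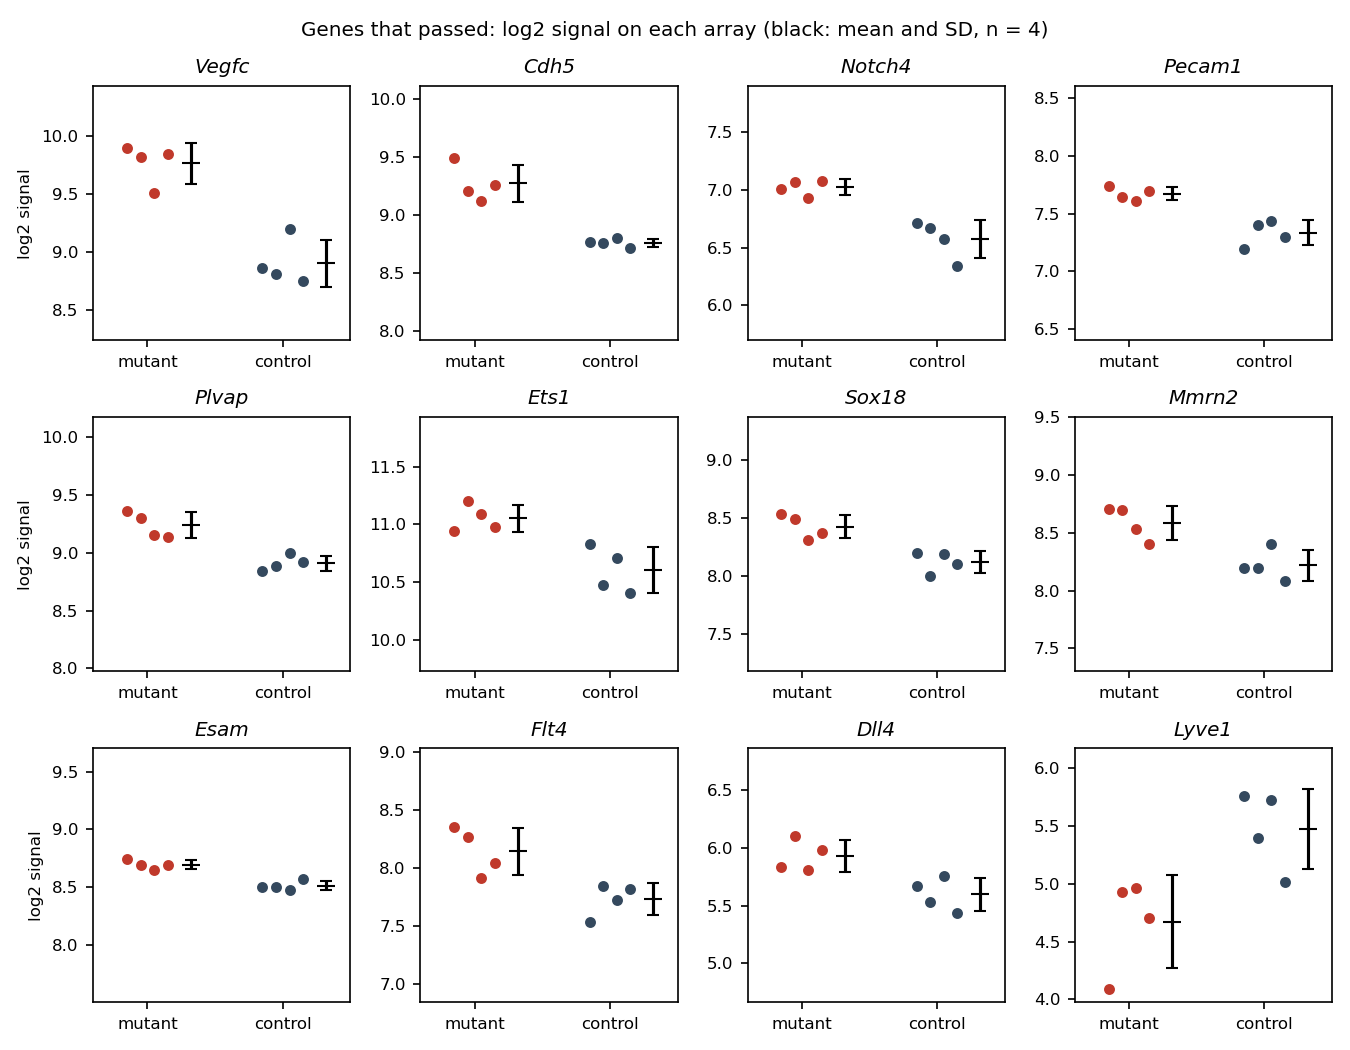
Log2 signal on each array (vertical axis) for the 12 genes with an adjusted p under 0.05, mutants in red and controls in dark blue, with group mean and SD in black (n = 4 each). Every panel spans the same range of log2 signal. The 4 Cdh5 controls lie between 8.71 and 8.80 with all 4 mutants above them, while Lyve1 mutants reach down to 4.09.

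Of the 12 called genes, 4 had a promoter entry in RefSeq (build GRCm38.p6), as did 22 of the 40. These 4 are the ligand genes Vegfc and Dll4 and the receptor genes Flt4 and Notch4. Their 250 bases upstream of the annotated start are shown 5′ to 3′ because they were the only called genes with such an entry. Each was searched on both strands for an Ets core (CCGGAA), a Sox motif (ACAAT) and a motif of the Notch effector RBPJ (TGGGAA). Matches are in capitals, and there were 0 overlaps.
Vegfc, chr8:54077282-54077531, plus strand: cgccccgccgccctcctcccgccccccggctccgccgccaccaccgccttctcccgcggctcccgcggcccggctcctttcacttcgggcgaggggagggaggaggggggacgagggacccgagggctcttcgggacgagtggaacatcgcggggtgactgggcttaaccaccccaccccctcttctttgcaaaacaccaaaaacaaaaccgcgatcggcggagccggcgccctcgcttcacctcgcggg
Flt4, chr11:49609429-49609678, plus strand: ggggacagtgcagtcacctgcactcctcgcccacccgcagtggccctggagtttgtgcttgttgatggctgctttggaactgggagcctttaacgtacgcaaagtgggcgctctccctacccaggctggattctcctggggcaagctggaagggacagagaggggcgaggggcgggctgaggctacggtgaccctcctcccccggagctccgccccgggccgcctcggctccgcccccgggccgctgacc
Dll4, chr2:119325534-119325783, plus strand: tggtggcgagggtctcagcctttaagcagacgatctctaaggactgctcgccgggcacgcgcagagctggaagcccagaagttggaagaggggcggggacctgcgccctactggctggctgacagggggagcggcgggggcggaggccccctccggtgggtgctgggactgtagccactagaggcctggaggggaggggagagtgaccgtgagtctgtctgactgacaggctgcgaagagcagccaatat
Notch4, chr17:34564045-34564294, plus strand: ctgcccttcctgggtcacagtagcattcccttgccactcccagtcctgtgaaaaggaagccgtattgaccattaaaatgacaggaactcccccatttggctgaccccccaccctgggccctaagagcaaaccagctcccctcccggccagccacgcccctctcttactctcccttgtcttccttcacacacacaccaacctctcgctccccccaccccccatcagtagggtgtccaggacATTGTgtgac

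The Notch4 window held 1 Sox motif, on the minus strand 10 to 6 bases before the start, and the windows of Vegfc, Flt4 and Dll4 held 0 of the 3 motifs. The G and C content was 71.6% for Vegfc, 68.4% for Flt4, 65.6% for Dll4 and 58.4% for Notch4. Over all 32851 promoters in the table, windows of the same length held the Ets core in 12.03%, the Sox motif in 27.7% and the RBPJ motif in 21.6%. Among the 29 promoters listed for the 22 genes these shares were 3.45%, 24.1% and 27.6%. A match is only a string of letters, and its absence from these windows says nothing about the factors.

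Among the 7 ligand genes, 2 rose, 0 fell and 5 did not pass (28.6% called, against 9.72% of all genes). Vegfc, encoding the ligand of Flt4 that drives lymphatic growth, showed the largest rise of the 40 genes. Its log2 signal was 9.89, 9.82, 9.50 and 9.85 on mutants 1 to 4, against 8.86, 8.80, 9.20 and 8.74 on controls 1 to 4. The groups did not overlap, and mutant 3 and control 3 stood nearest to each other. The log2 change was 0.86 (SE 0.115, adjusted p = 0.00203), which is 1.82-fold. The brightest Vegfc probe set is of a kind whose probes can match other transcripts, and both dimmer sets rose too, by 0.90 and 1.02 (adjusted p = 0.00879 and 0.00277 over all probe sets, of which 4.43% were called). Tested over that larger number, 7 of the 12 brightest probe sets called above still passed.

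Dll4, the Notch ligand of tip cells and arteries, read 5.84, 6.10, 5.80 and 5.98 on mutants 1 to 4, against 5.67, 5.53, 5.75 and 5.44 on controls 1 to 4. All mutant values lay above all control values, by a narrow margin, and 6 of the 8 values were below their array's median. The log2 change was 0.33 (SE 0.0879, adjusted p = 0.0445). It passed in 1 of the 8 fits with an array left out, the fit without control 3, and the dimmer probe set changed by 0.07 (adjusted p = 0.694 over all probe sets).

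Angpt2, which destabilises vessels by competing for Tek, read 6.45, 6.62, 6.62 and 6.39 on mutants 1 to 4, against 6.01, 6.25, 6.35 and 6.27 on controls 1 to 4. The groups did not overlap, yet its log2 change of 0.30 (SE 0.0842) missed the threshold at an adjusted p of 0.0543. It passed under 5 of the 18 alternatives. Its dimmer probe set, with a mean below the array medians, was at -0.13 (adjusted p = 0.531 over all probe sets), and averaging both sets gave 0.09 (adjusted p = 0.360).

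The remaining ligands differed little. Vegfa, the main VEGF ligand of blood vessels, averaged 7.43 ± 0.108 in mutants and 7.28 ± 0.152 in controls (SD, n = 4 each), with a 95% interval of the log2 change from -0.05 to 0.33 (limma adjusted p = 0.353). Apln, the apelin ligand made by tip cells, which lies on the X chromosome, changed by 0.09, Angpt1, the activating ligand of Tek, by 0.03 and Vegfb by 0.02, and in these 3 genes mutants and controls overlapped. For Vegfb the interval ran from -0.11 to 0.15.

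Among the 11 receptor genes, 2 rose, 0 fell and 9 did not pass (18.2% called, against 9.72% of all genes). That share was near the 17.3% of all genes called with dim probe sets left out. Notch4, an endothelial Notch receptor, read 7.01, 7.07, 6.93 and 7.08 on mutants 1 to 4, against 6.71, 6.67, 6.57 and 6.34 on controls 1 to 4. Every mutant value was above every control value, with control 4 lowest. The log2 change was 0.45 (SE 0.0822, adjusted p = 0.00889). Its 2 dimmer probe sets changed by -0.02 and -0.09 and did not pass, and averaging every Notch4 probe set gave 0.11 (adjusted p = 0.227).

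Flt4, the VEGF receptor of lymphatic endothelium and of sprouting vessels, read 8.36, 8.27, 7.92 and 8.04 on mutants 1 to 4, against 7.53, 7.84, 7.73 and 7.82 on controls 1 to 4. Mutants 1 and 2 were high, and mutant 3 stood just above the highest control. Its log2 change was 0.41 (SE 0.106, adjusted p = 0.0394). It passed in 1 of the 8 fits with an array left out, the fit without mutant 3. The dimmer probe set changed by 0.02 (adjusted p = 0.930 over all probe sets).

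Kdr, the main signalling receptor for VEGF in blood vessels, read 8.85, 9.11, 9.10 and 9.07 on mutants 1 to 4, against 8.82, 8.85, 8.49 and 8.38 on controls 1 to 4. The groups met at mutant 1 and control 2, and controls 3 and 4 were low. On the log2 scale the change was 0.39 (SE 0.114, adjusted p = 0.0618), which did not pass here but did under 4 of the 18 alternatives. Tie1 changed by 0.28 (adjusted p = 0.248) and Robo4, a guidance receptor that stabilises vessels, by 0.19, with overlapping groups.

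Changes of the other receptors were smaller, and none passed. Flt1, which traps VEGF, changed by 0.14, with a 95% interval from 0.0017 to 0.29 (limma adjusted p = 0.205). Tek changed by 0.11, with Tek mutants spread from 7.03 to 7.87. S1pr1, a receptor for the lipid S1P that maintains the barrier, changed by 0.07, Aplnr, the apelin receptor, by -0.03 and Acvrl1, the type I receptor ALK1 for BMP9 and BMP10, by 0.06. Eng, encoding endoglin, a co-receptor for the same ligands and for TGF-beta, changed by 0.04 with a 95% interval from -0.07 to 0.15. Aplnr had the highest mean signal of the 40 probe sets, 11.20 to 11.51 in mutants and 11.24 to 11.52 in controls, but signals of different probe sets do not rank genes by expression.

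**Figure D2:**
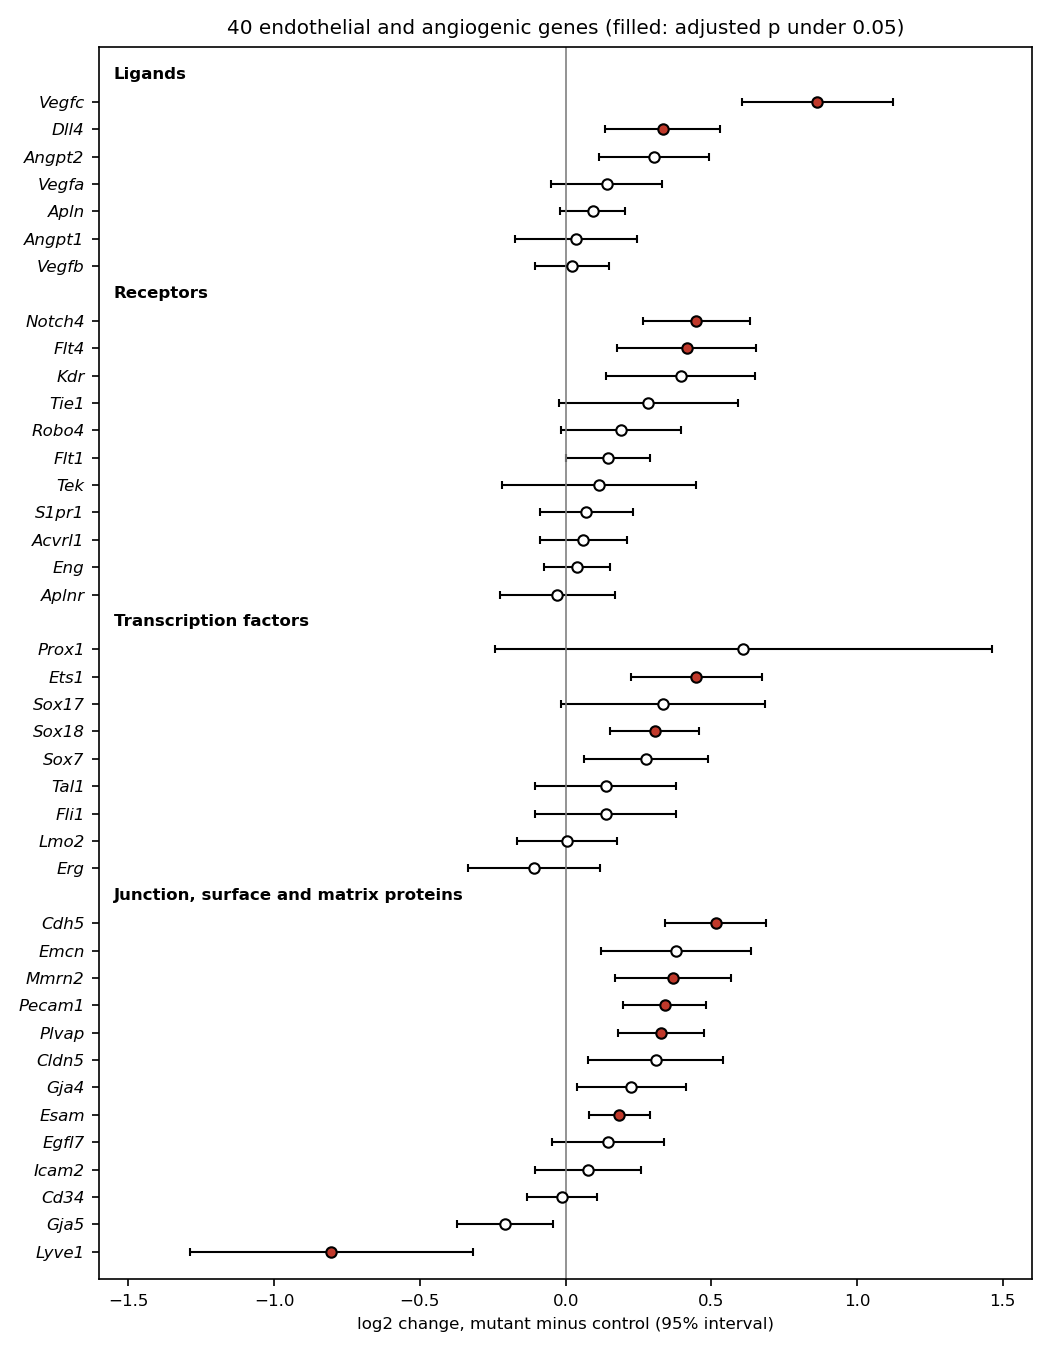
Log2 change, mutant minus control, with its 95% interval (horizontal axis) for the 40 genes grouped by role; filled points have an adjusted p under 0.05. Of the 40 points 35 lie to the right of 0, Vegfc is farthest right at 0.86 and Lyve1 farthest left at -0.80.

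Among the 9 transcription factor genes, 2 rose, 0 fell and 7 did not pass (22.2% called, against 9.72% of all genes). With dim probe sets left out, 17.3% of all genes were called. Ets1, an Ets factor of endothelium and also of mesenchyme and neural crest, read 10.94, 11.20, 11.09 and 10.98 on mutants 1 to 4, against 10.83, 10.48, 10.71 and 10.41 on controls 1 to 4. The mutants were all higher, with control 1 nearest to them. The change came to a log2 value of 0.45 (SE 0.1, adjusted p = 0.0222), its next brightest probe set changed by 0.46 (adjusted p = 0.0227 over all probe sets), and the call was lost in 4 of the 8 fits with an array left out, those without mutant 2, mutant 3, control 2 or control 4.

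The SoxF factors Sox7, Sox17 and Sox18 act together in vessel development. Sox18, which also induces Prox1 in lymphatic precursors, read 8.53, 8.49, 8.31 and 8.37 on mutants 1 to 4, against 8.20, 7.998, 8.19 and 8.10 on controls 1 to 4. All mutants were above all controls. Mutant minus control, the log2 change was 0.31 (SE 0.0685, adjusted p = 0.0229), and the call was lost without mutant 1, mutant 2, control 2 or control 4.

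Sox7 read 7.77, 7.81, 7.60 and 7.94 on mutants 1 to 4, against 7.67, 7.55, 7.52 and 7.28 on controls 1 to 4, a log2 change of 0.28 that did not pass (adjusted p = 0.106). Sox17, a factor of arteries, changed by 0.33 with wide scatter (SE 0.156, adjusted p = 0.233). In both genes control 4 was lowest and the groups overlapped.

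Prox1 had the widest spread. It read 6.36, 6.67, 7.18 and 7.62 on mutants 1 to 4, against 7.15, 6.75, 6.08 and 5.41 on controls 1 to 4. Its log2 change of 0.61 had a 95% interval from -0.24 to 1.46 (adjusted p = 0.372), which includes 0. Prox1 is also expressed outside lymphatic endothelium, for example in embryonic muscle and neurons.

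The Ets factors Fli1 and Erg changed by 0.14 and -0.11. Tal1 and Lmo2, partners in the complex that specifies blood and endothelium, changed by 0.14 and 0.01. Of these 4 genes 0 passed and all 4 had overlapping groups.

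Among the 13 genes of junctions, surface and vessel matrix, 5 rose, 1 fell and 7 did not pass (46.2% called, against 9.72% of all genes). Cdh5, encoding VE-cadherin of endothelial junctions, read 9.50, 9.21, 9.12 and 9.26 on mutants 1 to 4, against 8.76, 8.76, 8.80 and 8.71 on controls 1 to 4. Controls were tightly grouped and mutant 1 was highest. Its log2 change was 0.51 (SE 0.0769, adjusted p = 0.00342), which is 1.43-fold. A second, dim probe set, whose mean lay below the array medians, changed by 0.13 (adjusted p = 0.548 over all probe sets).

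Pecam1, encoding the adhesion protein CD31, read 7.74, 7.65, 7.61 and 7.70 on mutants 1 to 4, against 7.20, 7.40, 7.44 and 7.30 on controls 1 to 4. The groups were well apart, and the log2 change was 0.34 (SE 0.0636, adjusted p = 0.00984). Pecam1 is made by platelets and some leukocytes too, and their part in its rise was not tested.

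Plvap, the diaphragm protein of fenestrated and embryonic capillaries, read 9.36, 9.30, 9.15 and 9.14 on mutants 1 to 4, against 8.84, 8.89, 8.99 and 8.92 on controls 1 to 4. The mutants were all higher, with mutants 3 and 4 nearest to the controls. On the log2 scale the change was 0.33 (SE 0.0654, adjusted p = 0.0132), and the call was lost under 2 of the 18 alternatives, among them the fit without controls 1 and 3 together.

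Mmrn2, an endothelial matrix protein that binds VEGF, read 8.71, 8.70, 8.53 and 8.40 on mutants 1 to 4, against 8.19, 8.20, 8.40 and 8.08 on controls 1 to 4. Mutant 4 and control 3 met, so the groups overlapped. The change came to a log2 value of 0.37 (SE 0.0889, adjusted p = 0.0312). Its 3 dimmer probe sets were at 0.25 to 0.64, 2 of them passing over all probe sets, where the brightest did not (limma adjusted p = 0.0571). Left-out arrays ended the call in 6 of 8 fits, all but those without mutant 4 or control 3.

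Esam, an adhesion molecule of tight junctions, read 8.75, 8.69, 8.65 and 8.69 on mutants 1 to 4, against 8.50, 8.50, 8.48 and 8.57 on controls 1 to 4. The difference was small but larger than the spread, with a log2 change of 0.18 (SE 0.0464, adjusted p = 0.0372). The call held in 1 of the 8 fits with an array left out, that without control 4.

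Emcn, a sialomucin of veins and capillaries, read 9.48, 9.30, 8.96 and 8.98 on mutants 1 to 4, against 8.78, 8.71, 8.92 and 8.81 on controls 1 to 4. Mutants 1 and 2 were high, and the groups did not overlap. Its log2 change of 0.38 did not pass (SE 0.115, adjusted p = 0.0713).

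Cldn5, the endothelial claudin, read 9.34, 9.24, 8.86 and 9.13 on mutants 1 to 4, against 8.72, 8.89, 8.97 and 8.75 on controls 1 to 4. Mutant 3 lay among the controls, and the log2 change of 0.31 did not pass (adjusted p = 0.0986) except in the fit without mutant 3 (0.40, adjusted p = 0.0242). Egfl7, a secreted endothelial factor, changed by 0.14 and did not pass.

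Connexin genes of arteries had log2 changes of opposite sign, neither of which passed with all arrays. Gja4, encoding connexin 37, was at 0.23 (adjusted p = 0.136) and passed only without mutant 3 (0.30, adjusted p = 0.0293). Gja5, encoding connexin 40, read 5.54, 5.69, 5.71 and 5.54 on mutants 1 to 4, against 5.76, 6.01, 5.75 and 5.79 on controls 1 to 4. All Gja5 mutants lay below all controls, at signals below the array median on 7 of 8 arrays, and the log2 change was -0.21 (adjusted p = 0.118).

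Cd34 and Icam2 encode surface proteins that endothelium shares with blood progenitors or leukocytes, and neither passed. Cd34 read 9.36, 9.42, 9.27 and 9.38 on mutants 1 to 4, against 9.45, 9.32, 9.37 and 9.34 on controls 1 to 4. The values intermingled, and the 95% interval of the log2 change ran from -0.13 to 0.11. That interval does not reach the interval of Cdh5, from 0.34 to 0.69. However, Cd34 was added after its values were seen, and Cdh5 had the smallest p among the genes of junctions, surface and vessel matrix. This contrast therefore cannot show that the genes differ, and the difference between them was not itself tested. For Icam2 the change was 0.08 with an interval from -0.11 to 0.26, which includes the change of Esam.

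Lyve1, the hyaluronan receptor of lymphatic endothelium that is also made by a subset of macrophages, was the only gene of the 40 that fell. It read 4.09, 4.93, 4.96 and 4.71 on mutants 1 to 4, against 5.76, 5.40, 5.72 and 5.02 on controls 1 to 4, and it was the dimmest of the 40 probe sets. The groups did not overlap, mutant 1 was lowest, and all 8 values lay below their array's median. Mutant minus control, the log2 change was -0.80 (SE 0.216, adjusted p = 0.0470), or 0.573-fold in measured signal. The call was lost in 7 of the 8 fits with an array left out, all but that without control 4. A dimmer probe set, its mean also below the array medians, changed by -0.23 (limma adjusted p = 0.0457 over all probe sets). Over all probe sets the brightest Lyve1 set did not pass (limma adjusted p = 0.0781). Of 14 macrophage and leukocyte markers on the same arrays 5 fell and 0 rose (35.7% called, against 9.72% of all genes), with a mean signal of the list from 6.74 to 7.13 in mutants and from 7.16 to 7.27 in controls, and their part in the Lyve1 result was not tested. That count also depended on single arrays: 0 fell without mutant 4 or control 2, 1 without mutant 2, mutant 3 or control 4, 2 without control 3, 4 without control 1 and 7 without mutant 1.

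**Figure D3:**
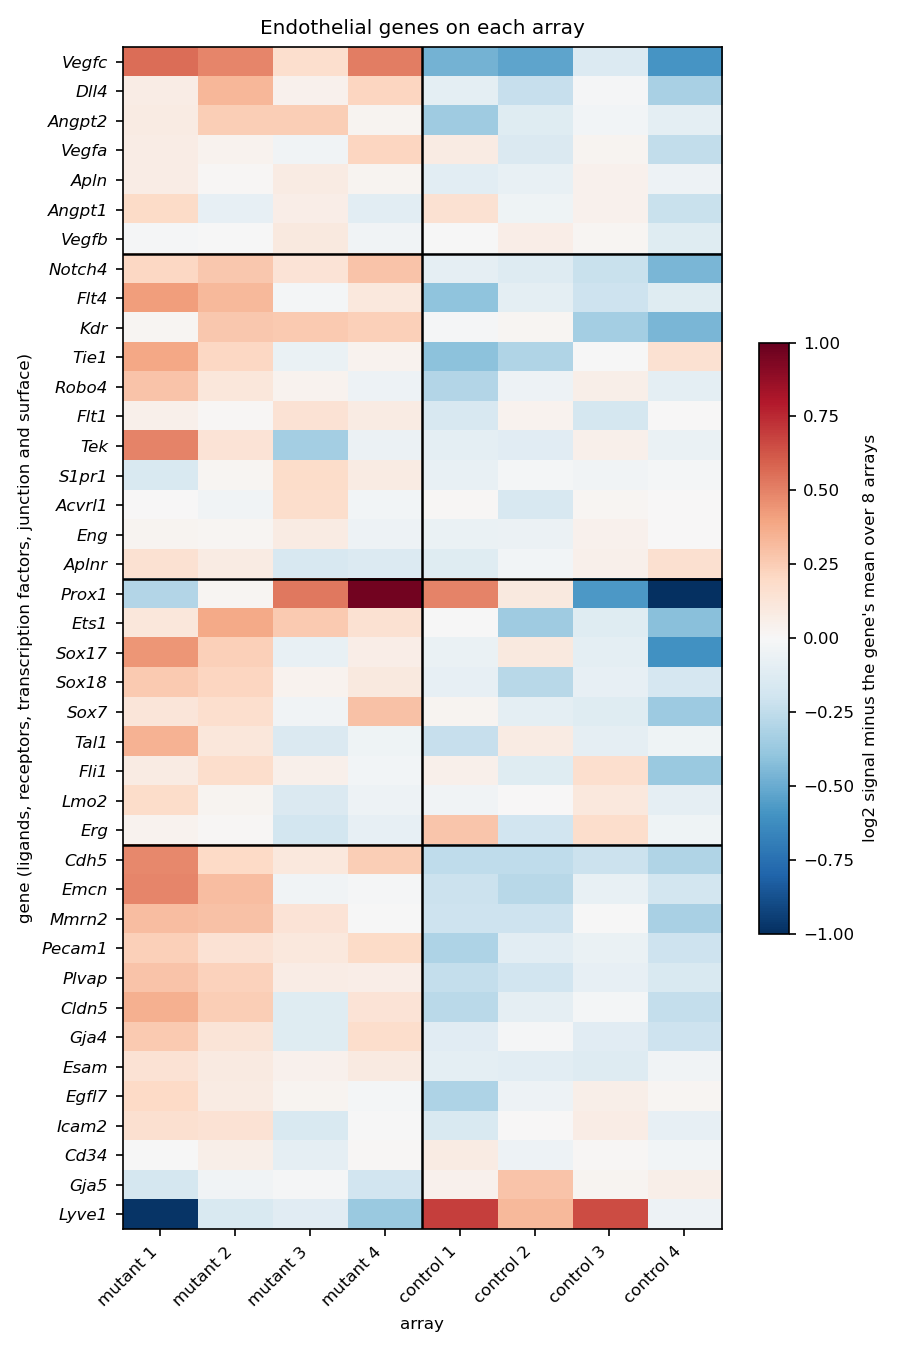
Log2 signal minus the gene's mean over the 8 arrays (colour, from -1 in blue to 1 in red, values beyond shown at the limit) for the 40 genes (rows, in order of log2 change within each role) on each array (columns, mutants left). Mutant 1 and mutant 2 are reddest, mutant 3 is paler, and Prox1 and Lyve1 vary most between arrays.

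The 40 genes did not shift by the same amount on each array. Relative to each gene's control mean, the average over the 40 was 0.25 on mutant 1, 0.24 on mutant 2, 0.13 on mutant 3 and 0.18 on mutant 4, against 0.01 on control 1, 0.01 on control 2, 0.07 on control 3 and -0.09 on control 4. The averages of all 4 mutants were thus above those of all 4 controls. Mutant 1 held the highest mutant value in 22 of the 40 genes and mutant 3 the lowest in 22, while control 3 held the highest control value in 18 and control 4 the lowest in 17. The 4 mutants took the same order here as on the second principal component of all genes, while control 4, at 6.55 on that component, had the lowest control average. Malat1, a nuclear RNA whose signal can vary with RNA quality, read 7.58, 8.28, 9.80 and 9.24 on mutants 1 to 4 and 9.73, 9.02, 7.49 and 7.11 on controls 1 to 4. Among mutants its order was the reverse of that of the endothelial averages, among controls it was not, and its part in these averages was not tested.

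Endothelial genes outside the 40 were taken from lists written with earlier results of these data known, and some genes stand in more than 1 list. Of 51 measured wider endothelial and angiogenic genes, 9 rose and 4 fell, so 25.5% were called against 9.72% of all genes, and the median log2 change was 0.11. With an array left out, 3 rose without mutant 1, 4 without mutant 2, mutant 4 or control 2, 5 without control 1 or control 4, 6 without control 3 and 7 without mutant 3. Foxc2, a forkhead factor of lymphatic valves and of head mesenchyme, rose by 1.28 (SE 0.127, adjusted p = 0.000481). Thbd, encoding thrombomodulin, rose by 0.57 and Plxnd1, the endothelial plexin that receives Sema3e, by 0.30, while Palmd, encoding palmdelphin, fell by 0.62 and Tmem204 fell by 0.71. Sema3e, a gene of the same list, had a log2 change of -0.78 (limma adjusted p = 0.0177).

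Vegfd, encoding the other ligand of Flt4 and lying like Apln on the X chromosome, moved opposite to Vegfc. It read 6.36, 6.37, 6.68 and 6.40 on mutants 1 to 4, against 8.59, 8.22, 7.69 and 8.22 on controls 1 to 4. The groups were more than 1 log2 unit apart, and control 3, the array without Y-linked signal, was the lowest control. Its log2 change was -1.73 (SE 0.165, adjusted p = 0.000427), and it passed under each of the 18 alternatives. Of 10 measured lymphatic genes 2 rose and 2 fell (40% called, against 9.72% of all genes), with a median of 0.01. Foxc2 and Gata2 rose, Gata2 losing its call in 6 of 8 fits with an array left out, and Vegfd and Pdpn, encoding podoplanin, were lower, Pdpn by -0.37 (adjusted p = 0.00741).

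Arterial and venous genes showed no common direction. Of 16 measured Notch, ephrin and arteriovenous genes 2 rose and 1 fell (18.8% called, against 9.72% of all genes). Their median was -0.00 on the log2 scale. That share was near the 17.3% of all genes called with dim probe sets left out. Nr2f2, encoding the venous and mesenchymal factor COUP-TFII, rose by 0.55 (adjusted p = 0.00362) and the netrin receptor gene Unc5b by 0.25, a call lost in 7 of 8 fits with an array left out. Hey2, a Notch target of arteries, changed by -0.65 (adjusted p = 0.0200) at signals below the array medians and did not pass without mutant 3 (-0.57, adjusted p = 0.0558).

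Targets of BMP9 and ALK1 signalling in endothelium, which many other cells of the bud express as well, were called in 7 of 11 cases. This was 63.6% against 9.72% of all genes, with 4 higher, 3 lower and a median of 0.12. Id2, Smad6, Id3 and Id1 rose by 0.54, 0.45, 0.39 and 0.33, and their 4 calls held in every fit with an array left out. Bmper, a secreted BMP modulator of vessels, fell by 1.36 (adjusted p = 3.16e-05) and the cell cycle inhibitor gene Cdkn1a fell by 0.50. Of 16 hypoxia genes, which include targets of the factor that induces Vegfa, 1 rose and 0 fell (6.25% called), with a median of -0.05. That gene, Adm, encoding adrenomedullin, rose by 0.27, and its call was lost in 6 of 8 fits with an array left out.

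**Figure D4:**
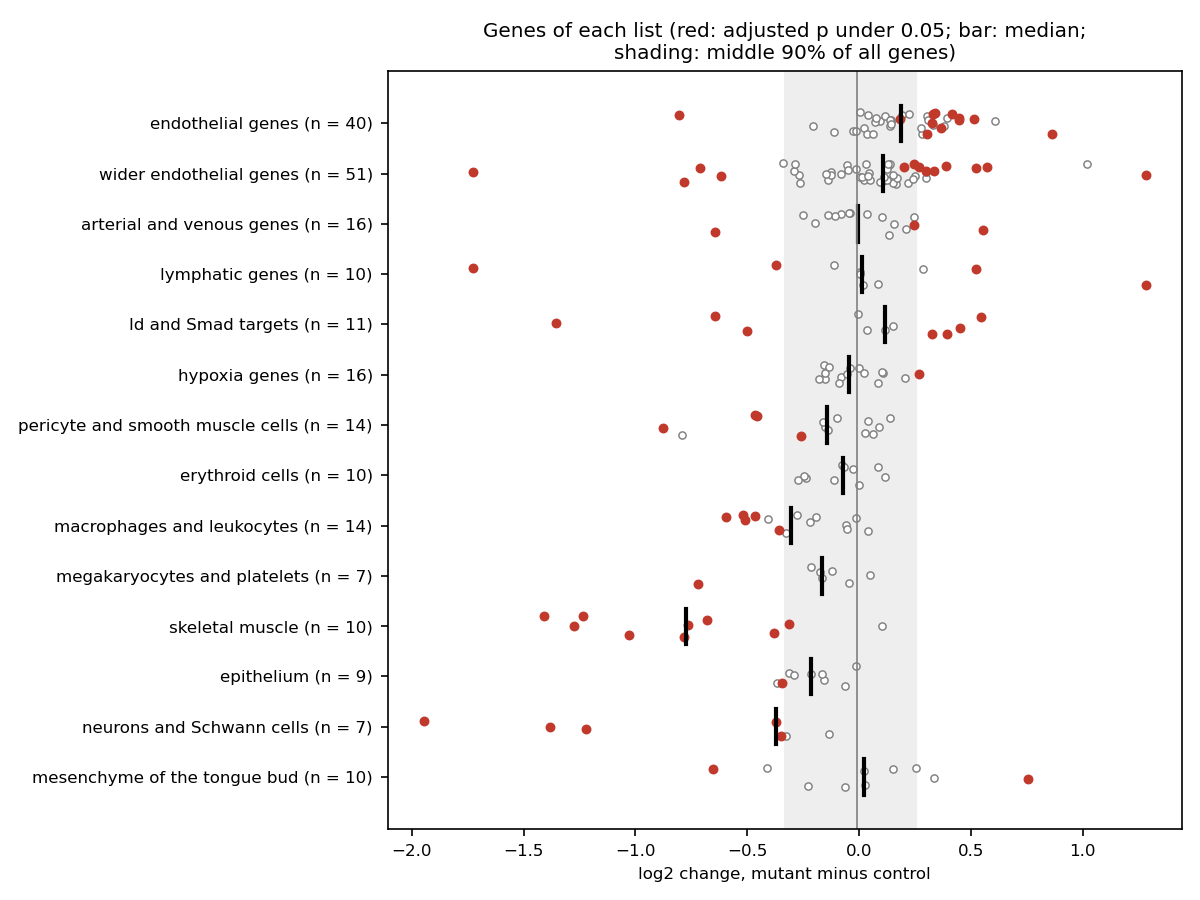
Log2 change, mutant minus control (horizontal axis), of each measured gene of the 40 and of 13 other lists (rows); red points have an adjusted p under 0.05, black bars are medians, and shading spans the middle 90% of all genes. The median of the 40 genes is 0.19, that of the wider endothelial list 0.11 and that of skeletal muscle markers -0.77.

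Markers of other cells moved on the same arrays, and their part in the endothelial results was not tested. Of 14 pericyte and smooth muscle markers 4 fell and 0 rose (28.6% called, against 9.72% of all genes), with a median of -0.15. Tagln was at -0.88 (adjusted p = 0.00890) and passed with any single array left out, Rgs4 lost its call in 6 of 8 such fits, and 2 markers fell without mutant 4 and 1 without control 2. The mean signal of these markers was 7.51 to 7.84 in mutants and 7.77 to 8.01 in controls. Of 7 megakaryocyte and platelet markers 1 was called, a share of 14.3% against 9.72% of all genes. This was Pf4, at -0.72 (adjusted p = 0.00992), and the list had means of 6.59 to 7.01 in mutants and 6.93 to 7.08 in controls. Erythroid markers passed limma in 0 of 10 cases, 1 of them at an unadjusted p under 0.05, with a median of -0.07 and means of 7.70 to 7.98 in mutants and 7.85 to 8.02 in controls.

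Skeletal muscle markers fell in 9 of 10 cases (90% called, against 9.72% of all genes), with a median of -0.77. Their list means were 10.15 to 10.56 in mutants against 11.03 to 11.31 in controls. Of 7 neuron and Schwann cell markers 5 fell (71.4% called), with a median of -0.37, and 3 did without mutant 4. Of 9 epithelial markers 1, Krt18, was called, a share of 11.1% near that of all genes, and its call was lost in 6 of 8 fits with an array left out; the median of that list was -0.21. Markers of tongue mesenchyme had a median of 0.02, with Prrx1 higher by 0.76 and Col1a1 lower.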

How the data were processed

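The deposited values are log2 expression values per probe set, 1 column for each of the 8 arrays. Per the submitters' processing notes RMA was used (its version is not given in the sources used here). RMA aligns array distributions, which can hide a shift that most genes share. There were 0 missing and 0 negative values. Of 45101 probe sets, 64 were controls, 34945 named 1 gene, 932 several and 9160 none in the platform annotation. Identifiers of 34741 matched RefSeq (GRCm38.p6) and 0 symbols changed. Probe sets naming several genes or none, and controls, were left out of the gene tests. No detection call was used.

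Mutants were set against controls by limma 3.58.1 under R 4.3.3 (two-sided moderated test, 3.4 prior degrees of freedom). P-values were adjusted by Benjamini-Hochberg over all 18193 genes, and 0.05 was the threshold. SE is the moderated standard error, and intervals are 95% and unadjusted. Dimmer probe sets were tested over all 45037 probe sets. Lists are described by counts and medians, without a set test. The 40 genes, the lists and the tests were chosen with earlier results of these data known. Per-array values are given for genes that passed, for the 6 next by p, and for the brightest and dimmest; Prox1 and Cd34 were added after their values were seen. Of each other list at most 6 called genes are named, by smallest p. Sema3e was added after its values were seen, as the ligand of Plxnd1. Tested on data simulated for 18193 genes, the procedure found 75 of 100 genes given a log2 change of 0.5 and 97 of 100 given 1, with 8 false calls. The simulated noise was independent between genes, and fewer genes were changed than were called here. Most genes that passed among the 40 changed by less than 0.5, so the simulation does not give error rates for these results. Alternatives covered the replicate number, scaling, dim probe sets, probe set choice, the variance model and left-out arrays. The number of arrays limits the precision.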

Additional observations from a re-analysis of the deposited data

Results flagged for a closer look

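In 7 of 166 groups of 4 values, among them 3 of the 80 groups of the 40 endothelial genes, the highest or lowest array stood apart from the others by more than Dixon's 95% limit, which chance exceeds in about 1 of 20 groups. Kdr on mutant 1 read 8.85, below the other mutants at 9.07 to 9.11, and without that array its log2 change was 0.45 (limma adjusted p = 0.0510). Acvrl1 on control 2 read 5.82, below the other controls at 5.98 to 6.00, and without it the change was 0.02. Gja5 on control 2 read 6.01, above the other controls at 5.75 to 5.79, and without it the change was -0.15 (adjusted p = 0.243). Among genes outside the 40, Vegfd on mutant 3 read 6.68, above the other mutants at 6.36 to 6.40, and Hey2 on mutant 3 read 4.49, below the other mutants at 4.79 to 4.82. Bmper on control 3 read 8.58, below the other controls at 8.69 to 8.70. Mylpf, a fast muscle light chain gene, on mutant 3 read 12.59, below the other mutants at 12.89 to 12.94. Without the array concerned, Vegfd, Bmper and Mylpf kept their calls and Hey2 did not (adjusted p = 0.0558).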

How the results depend on the processing

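The median log2 change of the 40 genes was 0.14 to 0.23 under all 18 alternatives, while the counts depended on the spread assumed and on the number of arrays. With single arrays left out, the counts of genes higher were 5 to 9 for the 40 genes (11 with all arrays), 3 to 7 for the wider endothelial list (9), 1 to 2 for the arteriovenous list (2), 1 to 2 for the lymphatic list (2), 0 to 1 for hypoxia genes (1) and 428 to 623 for all genes (764). The counts lower were 0 to 1 for the 40 genes (1), 0 to 1 for the arteriovenous list (1) and 0 to 1 for hypoxia genes (0). Calls fall partly because fewer arrays enter the fit. Without controls 1 and 3 together, 8 of the 40 were higher and 0 lower, 3 of the wider list were higher, 1 arteriovenous gene was higher and 0 lower, 1 lymphatic and 0 hypoxia genes were higher, and 481 of all genes were higher.

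Same-numbered arrays showed no clear pairing: their deviations correlated at -0.40, 0.02, -0.18 and -0.16. The highest correlation of each mutant array with another control number was 0.12 to 0.33. A highest of several values is favoured over a single one, so this cannot exclude pairing. With the replicate block, 3 of the 40 genes were higher (Vegfc, Notch4 and Cdh5) and 0 lower, 2 of the wider list, 1 arteriovenous, 1 lymphatic and 0 hypoxia genes were higher, and 329 of all genes were higher and 637 lower. Under it Pecam1 and Plvap did not pass (limma adjusted p = 0.0647 and 0.0740), and 0 macrophage, 2 pericyte and 0 epithelial markers were lower. Without variance moderation 6 of the 40 were higher and 0 lower, 5 of the wider list were higher and 2 lower, 1 arteriovenous gene was higher and 0 lower, 1 lymphatic and 0 hypoxia genes were higher, and 636 of all genes were lower.

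The 1 lower gene, Lyve1, was not called (0 lower) after repeated quantile normalization, after median centring and with trend and robust prior, and it was not tested once dim probe sets were left out (0 lower). Arteriovenous genes higher numbered 1 after quantile normalization and when each gene's probe sets were averaged, and 0 were lower without dim probe sets. Hypoxia genes higher numbered 2 after median centring, without dim probe sets, with trend and robust prior and with array quality weights. With such changes the cause was not tested. Acta2, a smooth muscle marker at -0.26, was 0.10 (limma adjusted p = 0.753) without probe sets that can match other transcripts. The direction of each gene that passed among the 40 was the same under every alternative in which it was measured. Detection was not assessed, so the 4 genes whose mean lay below the array medians, Dll4, Tie1, Lyve1 and Gja5, are limited by signal over background.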
